A study of Rattus norvegicus with 20 samples.

Results

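Meox2 and Tsku are regulators of development outside drug metabolism whose transcripts were higher with dose in rat liver after treatment with PBDE-47. They were chosen by their log2 differences from vehicle on these same arrays, so their levels and differences by dose are given as a description, with no test. Every probe set assigned to 1 of these gene symbols alone was taken, which gave 2 probe sets of 20826 with a single symbol and of 31042 tested on the array: 1368422_at for Meox2 and 1383315_at for Tsku. Each gene therefore rests on 1 probe set, and no second probe set was at hand to set beside it.

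Liver RNA was hybridised to Affymetrix rat genome arrays at postnatal day 4, and the 20 arrays form 4 groups of 5. Wistar Han dams, labelled Crl:WI (Han), received corn oil alone (vehicle) or PBDE-47 in corn oil at 0.1, 15 or 50 mg/kg per day by gavage from gestation day 6 to postnatal day 4. PBDE-47 is a brominated diphenyl ether flame retardant. All samples carry the sex label female, the tissue is the left lateral lobe of the liver, and the labels name neither the generation (dam or offspring) nor the animal or litter behind each liver, so p-values refer to the spread of these arrays, which may be technical. The number of arrays limits the precision. Values are log2 intensities from RMA, a background-corrected and quantile-normalized summary per probe set, on which 1 unit is a doubling.

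Meox2 is a homeobox transcription factor. In mouse embryos it acts with its relative Meox1 in the somites, the blocks of mesoderm that give rise to skeletal muscle and the axial skeleton, and it is needed for normal limb muscle. In endothelial cells of mouse and human it holds back proliferation through the cell cycle inhibitors Cdkn1a and Cdkn2a. Tsku encodes Tsukushi, a secreted protein of the small leucine-rich proteoglycan family, which was found in chick and frog embryos to bind BMP, TGF-beta, WNT receptors and other signals outside the cell. In adult mice liver is a main source of circulating Tsukushi, which has been tied to high-density lipoprotein, bile acid synthesis and heat production.

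The bases just before each gene's start are shown because the genes were higher together, and they let the letters before both starts be compared. Both are taken from RefSeq on GRCr8. Meox2 lies on the plus strand of chromosome 6 (59584025 to 59644722) and its upstream bases are chr6:59583775-59584024. Tsku lies on the minus strand of chromosome 1 (162071459 to 162082972). The start used in the promoter table lies 204 bases inside the span of the gene table, so for Tsku the 46 bases outside that span (chr1:162082973-162083018) and short stretches around its GC boxes (chr1:162082935-162082950 and chr1:162082804-162082832) are printed. Capitals mark matches to the motifs searched.
Meox2 upstream: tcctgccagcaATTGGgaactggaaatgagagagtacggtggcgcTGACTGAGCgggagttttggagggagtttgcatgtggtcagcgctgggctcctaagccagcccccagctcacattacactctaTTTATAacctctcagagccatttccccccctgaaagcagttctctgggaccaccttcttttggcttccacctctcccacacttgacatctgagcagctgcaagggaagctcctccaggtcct
Tsku upstream: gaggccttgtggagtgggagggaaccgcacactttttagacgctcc
Tsku GC box 1: ccagcGGGCGGggaca
Tsku GC boxes 2 and 3: gcggcGGGCGGggacgtgGGGCGGgacgt

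The searched window was the 250 bases before the start in the promoter table, on both strands, and 33469 rat promoters of the same length served as the background. The Meox2 window held 1 match to the TATA box letters (TATAAA, in 12.9% of promoters), 122 bases before the start. It also held 1 match to the CCAAT box (CCAAT, in 34% of promoters) and 1 to the antioxidant response core (TGACNNNGC, in 10.1%). The TATA and CCAAT matches lay on the strand opposite to the gene, so the printed bases read TTTATA and ATTGG. The Tsku window held 3 GC boxes (GGGCGG, in 30.5% of promoters), at 177, 59 and 46 bases before that start, and none of the letters found in Meox2. All 3 lie inside the gene's span in the gene table, as do 204 of the 250 bases of this window. The GC content was 54.8% for Meox2 and 69.2% for Tsku, against a median of 51.2%. Neither window held the nuclear receptor half-site AGGTCA (in 14.1% of promoters), its direct repeats spaced by 3 bases (in 0.0209%) or by 4 bases (in 0.00299%) or the aryl hydrocarbon receptor core GCGTG (in 25.9%). The direct repeats contain the half-site. These matches describe letters in a window and were not tested as binding sites.

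Meox2 was lowest in vehicle livers and highest at 15 and 50 mg/kg. In replicate order 1 to 5, its log2 values were 5.03, 6.93, 5.76, 6.59 and 5.54 in vehicle livers. At 0.1 mg/kg they were 6.37, 7.08, 6.36, 7.43 and 7.04. At 15 mg/kg they were 7.27, 7.49, 7.92, 8.14 and 8.26, and at 50 mg/kg 8.51, 7.02, 7.58, 7.79 and 7.72. Vehicle and 0.1 mg/kg overlapped, as did 0.1 and 15 mg/kg and 15 and 50 mg/kg, while every array at 15 or 50 mg/kg lay above every vehicle array. At 50 mg/kg the lowest array stood only 0.0878 log2 units above the highest vehicle array, and at 15 mg/kg 0.339 units above it.

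The group means of Tsku stood in order of dose. Its log2 values were 7.57, 8.48, 8.78, 8.35 and 8.64 in vehicle livers and 8.65, 8.43, 9.13, 8.98 and 9.07 at 0.1 mg/kg. They were 9.85, 9.29, 9.68, 9.24 and 9.42 at 15 mg/kg and 9.41, 9.71, 10.24, 9.51 and 10.18 at 50 mg/kg. Vehicle overlapped with 0.1 mg/kg and 15 with 50 mg/kg, whereas the 15 mg/kg arrays all lay above the 0.1 mg/kg arrays. The gap between the lowest dosed and the highest vehicle array was 0.623 log2 units at 50 mg/kg and 0.452 at 15 mg/kg.

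**Figure D1:**
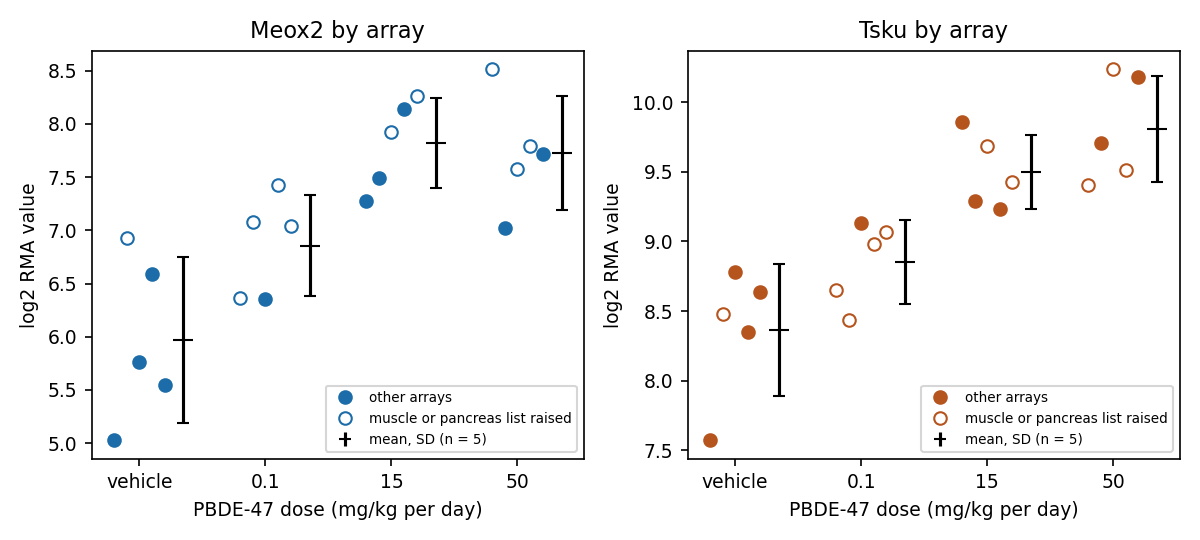
Log2 RMA values of Meox2 (left) and Tsku (right) on each of the 20 arrays, by dose in mg/kg per day, spaced evenly, with the group mean and SD (n = 5) as a bar beside the points. Open points are arrays with raised muscle or pancreas transcripts. All arrays at 15 and 50 mg/kg lie above all vehicle arrays for both genes.

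Group means put sizes to this order. Meox2 averaged 5.97 ± 0.778 in vehicle, 6.85 ± 0.474 at 0.1, 7.82 ± 0.423 at 15 and 7.72 ± 0.535 at 50 mg/kg (SD, n = 5 each). Tsku averaged 8.36 ± 0.472, 8.85 ± 0.299, 9.50 ± 0.264 and 9.81 ± 0.380 in the same groups (SD, n = 5 each). Between neighbouring doses, the step from vehicle to 0.1 mg/kg (0.884 for Meox2 and 0.489 for Tsku, in log2 units) was slightly larger than the larger SD of the neighbours (0.778 and 0.472). That from 0.1 to 15 mg/kg (0.962 and 0.643) was above that SD (0.474 and 0.299). That from 15 to 50 mg/kg (-0.094 and 0.311) was within it (0.535 and 0.380).

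Against vehicle, Meox2 was 3.37-fold higher at 50 mg/kg (log2 difference 1.75, SE 0.326) and 3.6-fold higher at 15 mg/kg (1.85, SE 0.326). Tsku was 2.72-fold higher at 50 mg/kg (1.44, SE 0.210) and 2.19-fold higher at 15 mg/kg (1.13, SE 0.210). At 0.1 mg/kg the differences were 0.88 for Meox2 and 0.49 for Tsku, and all 5 arrays lay above the vehicle mean for each gene, with 3 of 5 above the highest vehicle array. Both genes were chosen for these contrasts. Of all 31042 probe sets, 0.934% passed limma's test at 50 mg/kg with Benjamini-Hochberg adjustment under 0.05, 0.116% passed at 15 mg/kg and 0% passed at 0.1 mg/kg, where 2134 had an unadjusted p under 0.05 and the smallest adjusted p was 0.229. By direction, 0.586% were higher and 0.348% lower at 50 mg/kg, and 0.0934% were higher and 0.0226% lower at 15 mg/kg. The 3 comparisons share the vehicle arrays, so a low vehicle mean raises all 3 differences of a gene together. Vehicle replicate 1 held the lowest value of both genes, and without it the differences at 50 mg/kg were 1.52 for Meox2 and 1.25 for Tsku.

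The drug-metabolism genes raised by the same doses were set beside both genes at each dose. Cyp1a1, the classic target of the aryl hydrocarbon receptor, differed from vehicle by -0.09 at 0.1, 2.50 at 15 and 3.46 at 50 mg/kg in log2 units. The 8 measured targets of that receptor ran from -0.43 to 0.39 at 0.1 mg/kg, with 4 positive. Among them Cyp1a2 differed by 0.39, 1.18 and 1.06 at the 3 doses and did not pass. Cyp2c7, a monooxygenase regulated by the receptors CAR and PXR, differed by -0.36, 2.52 and 3.21, and its value at 0.1 mg/kg was the lowest of its list, which reached up to 0.42 at that dose with 10 of 22 genes positive. Among the list's genes that rose at 50 mg/kg, Gsta3, a glutathione transferase gene, differed by 0.36 and Alas1, a gene of heme synthesis, by 0.22 at 0.1 mg/kg. Over 22 measured targets of CAR and PXR the median difference was -0.02, 0.63 and 0.82 at the 3 doses, beside medians of 0.008, 0.013 and 0.009 over all probe sets. Over all 20 arrays 0, 9 and 15 of these targets rose at the 3 doses and 0 fell. Of all probe sets 0%, 0.0934% and 0.586% rose, and 0%, 0.0226% and 0.348% fell. With only the arrays low in muscle and pancreas markers, the median over the 22 targets was 0.67 at 15 mg/kg and 0.79 at 50 mg/kg. All 22 were positive at both doses, but just 3 and 2 dosed arrays and 4 vehicle arrays were left there. Whether the positive differences of Meox2 and Tsku at 0.1 mg/kg set them apart from these genes was not tested. At that dose 4 of 5 arrays carried muscle or pancreas transcripts, against 1 of 5 vehicle arrays.

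**Figure D2:**
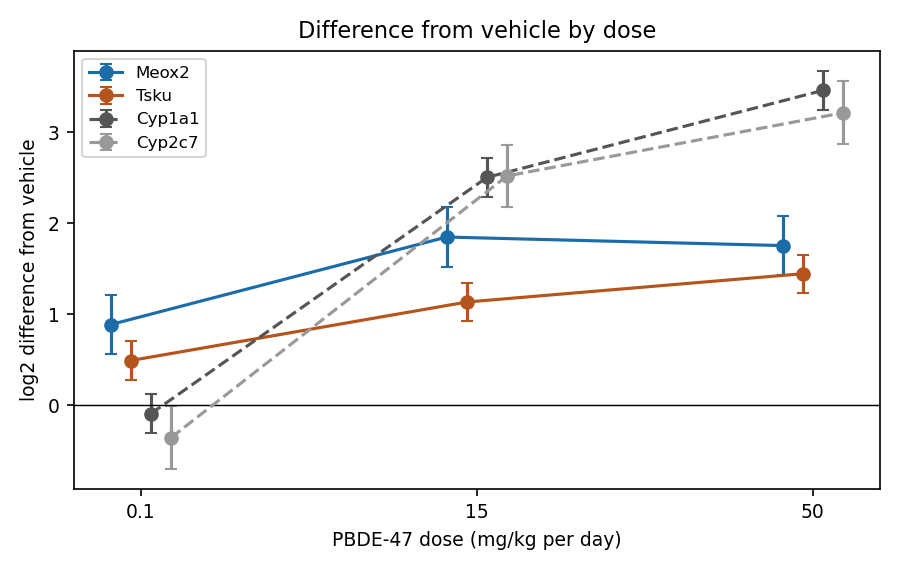
Log2 difference from vehicle at 0.1, 15 and 50 mg/kg per day (evenly spaced) for Meox2, Tsku and the drug-metabolism genes Cyp1a1 and Cyp2c7, with the SE of the fit as bars. Meox2 and Tsku stand above 0 at 0.1 mg/kg (0.88 and 0.49), where Cyp1a1 and Cyp2c7 stand at -0.09 and -0.36. At that dose Cyp2c7 is the lowest of the 22 CAR and PXR targets, and the 8 AhR targets run from -0.43 to 0.39.

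The label liver was checked against its markers. The mean of 9 measured hepatocyte genes was 14.13 to 14.25 on every array, with Alb at 14.73 to 14.82 and the fetal gene Afp at 14.21 to 14.34. The highest value in the data was 14.82, so these genes lay near the top of the scale. Their flat mean may therefore say little about the share of hepatocytes. Other tissue was present on some arrays. The mean of 9 measured of 10 skeletal muscle markers, among them Acta1 and Ckm, ranged from 4.05 to 9.95 in vehicle, from 4.14 to 10.37 at 0.1 mg/kg, from 4.12 to 10.43 at 15 mg/kg and from 4.29 to 8.21 at 50 mg/kg. The mean of 10 measured of 11 exocrine pancreas markers reached at most 4.78 in vehicle, 7.38 at 0.1 mg/kg, 7.47 at 15 mg/kg and 4.84 at 50 mg/kg. Arrays with a muscle or pancreas mean that exceeded the lowest array's by more than 2 log2 units were counted as carrying such transcripts, and there were 10: 1 in vehicle, 4 at 0.1, 2 at 15 and 3 at 50 mg/kg. In bulk tissue, fewer cells of a type and less RNA per cell cannot be told apart.

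Meox2 is itself active in muscle precursors, so its values were set beside these markers. Without the 10 arrays, Meox2 was 7.02 and 7.72 at 50 mg/kg and 7.27 to 8.14 on 3 arrays at 15 mg/kg, against 5.03 to 6.59 on 4 vehicle arrays. The 1 array left at 0.1 mg/kg was at 6.36, inside the vehicle range. The log2 differences were 1.64 at 50 and 1.90 at 15 mg/kg, close to those over all arrays. The highest vehicle value, 6.93, belonged to replicate 2, the vehicle array with raised muscle markers. With the muscle and pancreas means as covariates the differences were 1.63 and 1.67. The arrays left lay under a limit and need not be free of muscle transcripts. Their muscle mean was 5.29 on replicate 5 at 50 mg/kg and at most 4.59 in vehicle. Among them 9 of 9 muscle genes were positive at 50 mg/kg (median log2 difference 0.30) and 6 at 15 mg/kg (median 0.08). The part of muscle in these Meox2 differences was not tested. Tsku without the 10 arrays was 9.71 and 10.18 at 50 mg/kg and 9.24 to 9.85 on 3 arrays at 15 mg/kg, against 7.57 to 8.78 on 4 vehicle arrays, with differences of 1.61 and 1.12. The 1 array left at 0.1 mg/kg was at 9.13 for Tsku, above those vehicle arrays.

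The variation between arrays of 1 dose did not enter the choice of the genes, so it could be tested. Both probe sets varied widely within groups. The pooled SD was 0.569 for Meox2, higher than that of 98.3% of 3918 probe sets whose mean lay within 0.5 units of it, and 0.363 for Tsku, higher than that of 95.1% of 2107. After each group's mean was subtracted, Meox2 and Tsku showed no common variation that passed the test over the 20 arrays (Pearson r = 0.02, permutation p = 0.945, Spearman rho = -0.16, permutation p = 0.558). Without the 2 arrays farthest from the median on the x axis (Tsku), r was -0.28. Over the uncentred values, which contain the dose, r was 0.70, and Tsku ranked 113th of 20825 probe sets by likeness to Meox2.

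Each gene was also set against 9 cell type lists and the CAR and PXR and AhR target lists in the same way, which with the pair above makes 23 relations, each tested by two-sided permutation within groups and adjusted over the 23. Meox2 had its highest values of r with the muscle mean (r = 0.55, permutation p = 0.0169, adjusted p = 0.265; rho = 0.57, permutation p = 0.0142, adjusted p = 0.326) and with the mean of 11 stellate and mesenchymal markers such as Pdgfrb and Col1a1 (r = 0.56, permutation p = 0.0231, adjusted p = 0.265; rho = 0.51, permutation p = 0.0349, adjusted p = 0.402). The stellate list also holds Des, whose SD was 0.997 in vehicle, 1.31 at 0.1, 1.29 at 15 and 0.506 at 50 mg/kg. The part of Des in the stellate relation was not tested. Without the 2 arrays farthest from the median of the list, r was 0.48 with muscle and 0.50 with stellate markers. Among the 10 arrays under the muscle and pancreas limit, r was 0.67 with muscle and 0.15 with stellate markers. The muscle mean still ranged from 4.05 to 5.29 on those arrays. None of the 23 relations passed after adjustment by either measure. For Tsku the highest r was 0.51, with 7 endothelial markers (permutation p = 0.0825, adjusted p = 0.380), which came to 0.12 without the 2 farthest arrays, and r with muscle was 0.10 (permutation p = 0.694, adjusted p = 0.939). Among the 10 arrays under that limit, r of Tsku was 0.81 with endothelial markers and 0.82 with stellate markers (0.04 over all 20 arrays). With Kupffer markers r of Tsku was 0.67 there, and with muscle -0.07. These values over 10 arrays, 1 of which is alone in its dose group, were not tested.

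**Figure D3:**
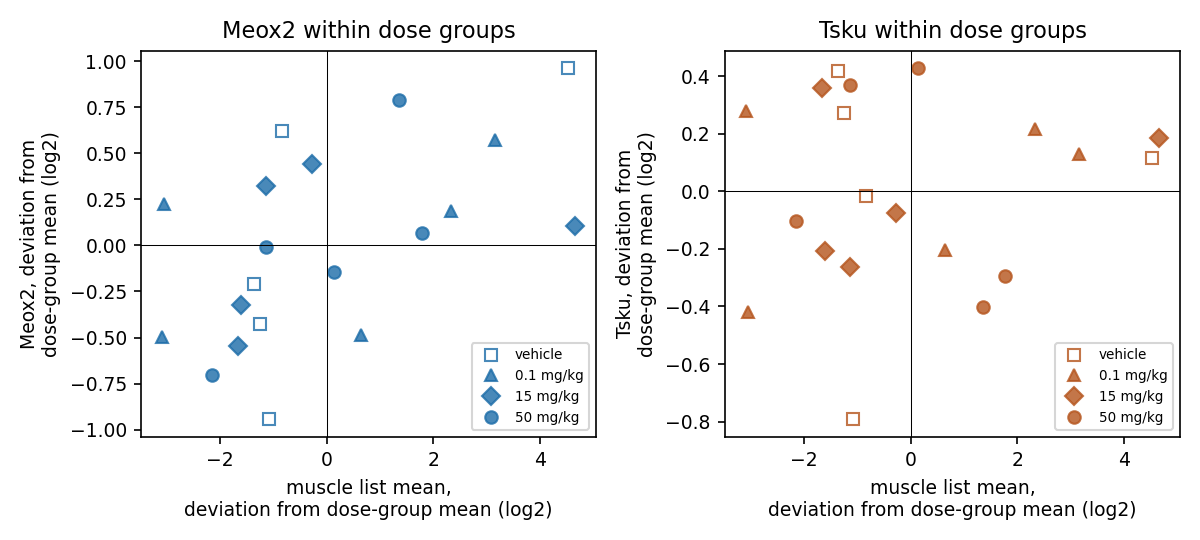
Deviation of Meox2 (left) and Tsku (right) from the mean of its dose group, in log2 units, against the same deviation of the muscle list mean, for the 20 arrays with a symbol for each dose. Meox2 tends upward to the right (r = 0.55) and Tsku shows little slope (r = 0.10), and neither passed after adjustment over 23 relations.

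Genes with the most similar pattern were named by Pearson r over the 20 arrays, among 20825 other single-symbol probe sets. With dose included, those nearest to Meox2 were Evc (r = 0.86), which acts in hedgehog signalling at the cilium, the coagulation inhibitor gene Tfpi (0.83), the cell surface gene Cd99 (0.83), Smyd4 (0.83) and Coq4 (0.82), a gene of coenzyme Q synthesis. Evc had values of 5.41 to 5.80 at 50 mg/kg, against 5.08 to 5.29 in vehicle, a difference of 0.40, far smaller than that of Meox2. Those nearest to Tsku were Apip (0.89), a gene of methionine salvage, the glycogen-binding gene Stbd1 (0.88), Cyp2a3 (0.87), the selenocysteine lyase gene Scly (0.86) and Alas1 (0.85), which encodes the first enzyme of heme synthesis. Of these, Cyp2a3 and Alas1 are drug-metabolism targets on the CAR and PXR list, and no gene of that list was among the 5 nearest to Meox2. Within dose groups the order was the other way. There r with the mean of that list was 0.50 for Meox2 (permutation p = 0.0426, adjusted p = 0.327), and 0.26 without the 2 farthest arrays. For Tsku it was -0.23 (permutation p = 0.419, adjusted p = 0.742). Stbd1 was 9.96 to 10.46 at 50 mg/kg, against 8.50 to 9.14 in vehicle. As these genes were picked for their likeness, their difference by dose is part of the choice.

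With the dose-group means removed, the nearest genes were others. For Meox2 they were Sfrp2 (r = 0.87), a secreted WNT inhibitor of mesenchymal cells, Asb2 (0.79), part of a ubiquitin ligase found in muscle, Pbxip1 (0.79), Dglucy (0.78) and the glypican gene Gpc6 (0.76). For Tsku they were the corepressor gene Irf2bp2 (r = 0.88), Cars1 (0.83), which encodes cysteinyl-tRNA synthetase, the endothelial adhesion gene Icam2 (0.82), the lipogenesis regulator gene Mid1ip1 (0.81) and Zmat5 (0.80). No gene was named for both members, or for 1 member by both measures. The probe sets of Sfrp2, Asb2 and Gpc6 were dim, with means of 4.81, 3.9 and 4.43, below the array medians of 5.605 to 5.648. Those of Pbxip1 and Dglucy averaged 7.31 and 6.12. This Sfrp2 probe set is not the brighter one read with the WNT list. The points share their arrays, and the highest of 20825 values of r is large by selection.

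The families and pathways around Meox2 and Tsku were read from 12 lists. Of 186 measured genes on 12 lists of regulators, signals and secreted proteins, each counted once, 1 fell and 0 rose at 50 mg/kg (0.538%, beside 0.934% of all probe sets), and 0 passed at 15 or 0.1 mg/kg (limma with Benjamini-Hochberg adjustment over all probe sets). This share is near that of all probe sets and says nothing particular about these genes. The median log2 difference at 50 mg/kg was 0.002 over these genes and 0.009 over all probe sets. The gene that fell was Gdf11, a ligand of the TGF-beta family that patterns the trunk in mouse embryos.

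Among 21 measured homeobox and paired-box genes 0 passed at 50 mg/kg, with log2 differences of -0.36 to 0.28 and a median of 0.02. Meox1, the relative of Meox2, was near the bottom of the scale at a vehicle mean of 2.82, and differed by 0.04 (adjusted p = 0.907). The repressor gene Zeb2 had the smallest p (difference -0.36, SE 0.115, adjusted p = 0.159), with values of 7.67 to 8.02 at 50 mg/kg, against 8.07 to 8.39 in vehicle. Next came Tgif1, which curbs TGF-beta responses (0.19, adjusted p = 0.330), the chromatin organiser gene Satb1 (-0.29, adjusted p = 0.351) and Barx1 (0.23, adjusted p = 0.390). Of 10 measured partners and targets reported for Meox2 in mouse and human cells 0 passed. The cell cycle inhibitor gene Cdkn1a differed by -0.09 (adjusted p = 0.896), the fatty acid uptake gene Cd36 by -0.66 (adjusted p = 0.448), the lipase gene Lpl by 0.28 (adjusted p = 0.636), the fatty acid binding gene Fabp4 by 0.06 (adjusted p = 0.947) and Twist1, a mesodermal transcription factor gene, by 0.18 (adjusted p = 0.602).

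Among 14 measured small leucine-rich proteoglycans, the family of Tsku, 0 passed at 50 mg/kg and the median difference was 0.09. Lum, which encodes the collagen-binding proteoglycan lumican, had the smallest p and a difference close to that of Tsku (1.28, SE 0.409, adjusted p = 0.167), with values of 9.95, 8.42, 9.76, 10.77 and 9.19 at 50 mg/kg, against 7.65, 9.27, 8.45, 7.85 and 8.47 in vehicle. The groups overlapped, and at 0.1 mg/kg Lum was at 9.20 to 10.06, a difference of 1.24 (the highest of this list at that dose). Without the 10 arrays carrying other tissue Lum differed by 0.70 (adjusted p = 0.706), with 2 arrays left at 50 mg/kg. The part of other tissue in the Lum values was not tested. The others with the smallest p were Prelp (-0.22, adjusted p = 0.176), Optc (0.27, adjusted p = 0.518) and Podn (0.10, adjusted p = 0.545), and Dcn, which encodes decorin, differed by 0.57 (adjusted p = 0.571).

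The ligands, receptors, inhibitors and targets of the TGF-beta and BMP pathways were followed because Tsukushi binds such ligands. Of 16 measured ligands 1 fell and 0 rose at 50 mg/kg, with a median of 0.12. Gdf11 had values of 4.58, 5.16, 5.16, 5.31 and 5.69 at 50 mg/kg, against 5.49, 6.16, 5.93, 6.39 and 7.08 in vehicle, so that the groups overlapped in 1 array each (log2 difference -1.03, SE 0.220, adjusted p = 0.0284). That call held in 14 of 20 fits without 1 array and was lost when vehicle replicate 2 or 4, or 50 mg/kg replicate 1, 2, 3 or 4, was left out, with differences over the 20 fits of -1.21 to -0.81. It was also lost without the arrays carrying other tissue (-0.80, adjusted p = 0.663), and a dimmer probe set of Gdf11 differed by 0.11 (adjusted p = 0.615). Inhbb, the activin beta B chain, differed by -1.18 (adjusted p = 0.175), the stress-induced Gdf15 by 0.26 (adjusted p = 0.160) and Bmp4 by 0.21 (adjusted p = 0.548).

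Of 15 receptors and SMADs 0 passed, with differences between -0.21 and 0.19; those with the smallest p were Acvrl1 (-0.21, adjusted p = 0.366), Tgfbr3 (0.19, adjusted p = 0.529), Smad4 (-0.11, adjusted p = 0.574) and Bmpr1a (0.12, adjusted p = 0.643). Of 15 inhibitors 0 passed, among them the activin antagonist Fst (-0.51, adjusted p = 0.413), Sostdc1 (0.24, adjusted p = 0.512), Fstl1 (0.21, adjusted p = 0.546) and Bambi (-0.17, adjusted p = 0.623). Of 12 target genes 0 passed and the median was 0.02. These included the direct BMP target genes Id1 (0.10, adjusted p = 0.861) and Id3 (-0.20, adjusted p = 0.661). Id4 (-0.51, adjusted p = 0.256) and the iron hormone gene Hamp (-0.25, adjusted p = 0.778) were others. Of the inhibitors named, Fst differed by -0.71 at 0.1 and -0.42 at 15 mg/kg. At these doses Sostdc1 differed by 0.40 and 0.39, Fstl1 by 0.13 and 0.03 and Bambi by -0.14 and -0.02.

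**Figure D4:**
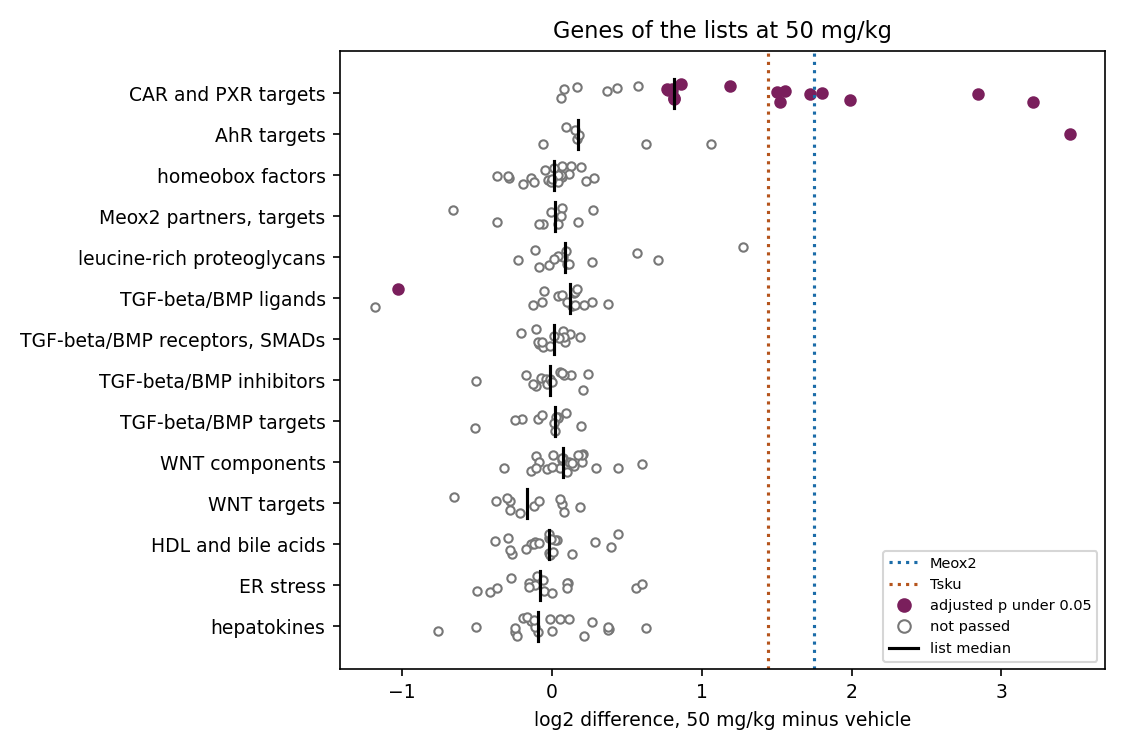
Log2 difference at 50 mg/kg minus vehicle for each measured gene of the drug-metabolism lists and of the 12 lists around Meox2 and Tsku, 1 row per list, with filled points for an adjusted p under 0.05 (limma) and a bar at the list median. Dotted lines mark Tsku (1.44) and Meox2 (1.75), and of the 12 lists only that of the TGF-beta and BMP ligands holds a filled point, Gdf11.

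In the WNT pathway, which Tsukushi enters through the receptor Fzd4 in vertebrate eyes, 0 of 23 measured ligands, receptors and inhibitors passed. Fzd4 had values of 7.87 to 8.57 at 50 mg/kg, against 7.34 to 8.20 in vehicle (difference 0.44, SE 0.158, adjusted p = 0.223), and those groups overlapped. Fzd8 differed by -0.32 (adjusted p = 0.242), Dkk3 by 0.30 (adjusted p = 0.254) and Sfrp2 by 0.60 (adjusted p = 0.443), the last with its brighter probe set. Sfrp2 came to 0.02 without the 10 arrays carrying other tissue. Of 12 targets of beta-catenin in liver 0 passed and 8 were lower, with a median of -0.17 beside 0.009 over all probe sets. Oat, a pericentral ornithine enzyme gene, had values of 8.13 to 8.81 at 50 mg/kg, against 8.80 to 9.60 in vehicle (difference -0.65, SE 0.172, adjusted p = 0.0813), and Glul, the glutamine synthetase gene of the same cells, differed by -0.28 (adjusted p = 0.0966). Znrf3 differed by -0.30 (adjusted p = 0.314) and Tcf7 by -0.28 (adjusted p = 0.317). At 0.1 and 15 mg/kg Oat differed by -0.45 and -0.82, and Glul by -0.33 and -0.21. Those of Znrf3 were -0.28 and -0.18, and those of Tcf7 -0.01 and -0.14. Oat and Glul were thus not lowest at the highest dose.

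The processes tied to Tsukushi in adult mouse liver were read from 3 further lists. Of 21 genes of cholesterol efflux, high-density lipoprotein and bile acid synthesis 0 passed at 50 mg/kg, with a median of -0.02. The lipoprotein receptor gene Scarb1 differed by -0.29 (adjusted p = 0.152), Mylip by -0.27 (adjusted p = 0.296), the efflux transporter genes Abcg1 and Abca1 by -0.28 (adjusted p = 0.312) and -0.01 (adjusted p = 0.982), the oxysterol receptor gene Nr1h2 by -0.38 (adjusted p = 0.355), and Cyp7a1, whose enzyme limits the rate at which bile acids are made, by 0.29 (adjusted p = 0.659). Of 16 genes of endoplasmic reticulum stress, which raises Tsku in mice, 0 passed and 11 were lower. Atf3 differed by 0.56 (adjusted p = 0.0971), the folding factor genes Creld2 and Hyou1 by -0.42 (adjusted p = 0.114) and -0.37 (adjusted p = 0.130), Manf by -0.15 (adjusted p = 0.481) and the chaperone gene Hspa5 by -0.06 (adjusted p = 0.809). At 0.1 and 15 mg/kg Creld2 differed by -0.35 and -0.42, Hyou1 by -0.35 and -0.45, and Atf3 by 0.33 and 0.10. Among 21 other hormone-like proteins secreted by liver 0 passed at 50 mg/kg. Gpnmb, a transmembrane glycoprotein gene also expressed by macrophages, was at 8.71 to 9.56 at 50 mg/kg, against 9.50 to 10.15 in vehicle (difference -0.76, SE 0.192, adjusted p = 0.0659), Angptl4, which inhibits lipoprotein lipase, differed by 0.63 (adjusted p = 0.106), and the angiotensinogen gene Agt by -0.24 (adjusted p = 0.193). At 0.1 and 15 mg/kg Gpnmb differed by -0.43 and -0.53, Angptl4 by -0.20 and 0.25, and Agt by -0.275 and -0.18. The mean of 8 Kupffer cell markers was 9.20 to 9.65 at 50 mg/kg, against 9.73 to 10.00 in vehicle. Of these markers 4 fell at 50 mg/kg (beside 0.348% of all probe sets). Without the 10 arrays carrying other tissue 0 of the 8 passed, with a median difference of -0.46 against -0.47 over all arrays. Its part in the values of Gpnmb was not tested.

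Under the alternative settings the differences of both genes kept their sign and their rough size. Over 30 other settings each, the difference of Meox2 at 50 mg/kg lay between 1.52 and 1.99 and that of Tsku between 1.25 and 1.61. At 15 mg/kg they lay between 1.60 and 2.09 for Meox2 and between 0.93 and 1.24 for Tsku. At 0.1 mg/kg they lay between 0.59, with the muscle and pancreas covariates, and 1.12 for Meox2, and between 0.29, without vehicle replicate 1, and 0.80 for Tsku. Many of these settings cannot move a given difference of group means, so they are no check on it. Such settings are leaving out an array of a dose not compared, the filter by mean and the shrinkage setting. The fit of only the groups compared and the replicate block are others.

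**Figure D5:**
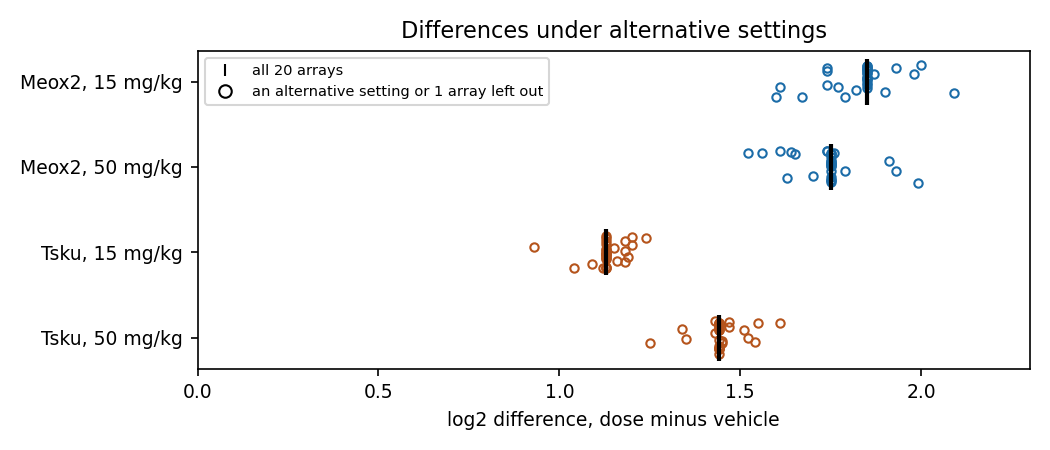
Log2 difference from vehicle of Meox2 and Tsku at 15 and 50 mg/kg under 30 other settings each (circles, including 1 array left out at a time), with the value over all 20 arrays as a black bar. All values lie above 0, the lowest at 0.93 for Tsku at 15 mg/kg. The spread is a description, and many of the settings cannot move a given difference.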

How the data were processed

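Log2 values of 31099 probe sets were deposited, made by the authors with RMA per the submitters' processing notes, from 100 ng of total RNA that was amplified, per the labels' protocols. The version of RMA is not given in the sources used here. Without 57 control probe sets, 31042 remained for the tests. GEO's platform annotation gave 1 symbol for 20826 of these, several for 436 and none here for 9780. One mean per dose group was fitted to all 20 arrays by lmFit and eBayes of limma 3.58.1 (R 4.3.3), and each dose was compared with vehicle with Benjamini-Hochberg adjustment over all probe sets, called under 0.05. Each list gene was represented by its brightest single-symbol probe set. The members and lists were chosen with earlier results of these data known. Genes named are the members, all called genes and up to 4 with the smallest p at 50 mg/kg per list (Abca1, Cyp7a1, Cdkn1a, Fabp4, Meox1, Dcn, Id1 and Hspa5 were added outside this rule after their values were seen), the 5 nearest by each likeness, and 6 index genes. Of the longer drug lists only genes needed for comparison are named. Within-group correlations used 100000 permutations within groups. The fit was tested on simulated data. Replicate numbers showed no pairing of the arrays: deviations of same-numbered arrays had a median correlation of 0.00 over 30 pairs, 10 of them over 0.1. With different numbers the median was -0.00 over 120 pairs, 39 of them over 0.1. Arrays of different groups with the same leading digit in their description had a median of 0.04 over 37 pairs, 17 of them over 0.1. That digit served as a block in an alternative fit. No 2 arrays were identical. Upstream bases came from RefSeq (GRCr8). Plots came from matplotlib 3.10.9 under Python 3.11.15.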

Additional observations from a re-analysis of the deposited data

How the results depend on the processing

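The log2 differences of Meox2 and Tsku at 0.1, 15 and 50 mg/kg moved by less than 1 within-group SD under the 30 settings run for each. Those at 0.1 mg/kg were added after seeing the data. Many of the settings, such as leaving out an array of a dose not compared, cannot move a given difference. The counts of called probe sets moved more. At 50 mg/kg 290 were called, 89 in a fit of only the groups compared and 3 without the arrays carrying muscle or pancreas transcripts. Leaving out 1 array gave 106 to 276, which was 180, 177 and 137 when vehicle replicate 2, 3 or 4 was left out and 181, 106 and 152 for 50 mg/kg replicates 3, 4 and 5. At 15 mg/kg 36 were called, 11 with only the groups compared, 16 with the muscle and pancreas covariates, 3 without the arrays carrying other tissue, and 14 to 44 without 1 array (20, 22 and 23 when vehicle replicate 3, 4 or 5 was left out, 16 and 14 for 15 mg/kg replicates 4 and 5). The cause of these shifts was not tested, beyond the fewer arrays in such fits. At 0.1 mg/kg leaving out 1 array gave 0 to 1 calls, the 1 without vehicle replicate 4 or without replicate 3 at 0.1 mg/kg. Of the 12 lists 1 gene was called at 50 mg/kg. That count was 2 with a mean of at least 5, with the replicate block and with the covariates (Gdf11 and Gpnmb each time), 0 without the arrays carrying other tissue, and 0 to 2 without 1 array. In the fit of only the groups compared, Angptl4 was the 1 gene called, in place of Gdf11. At 15 mg/kg the count was 0 to 1, Oat passing when replicate 2 of vehicle was left out (limma adjusted p = 0.0496), and likewise for that of 15 mg/kg (0.0239). The replicate block gave 235 calls at 50 mg/kg and 36 at 15 mg/kg. It cannot change a difference of Meox2 or Tsku, as each group holds every replicate number once. The within-group correlation of Meox2 and Tsku, near 0, was -0.01 with the description digit as a block, 0.29 without the arrays carrying other tissue (permutation p = 0.575) and -0.37 to 0.16 without 1 array. Each member rests on 1 probe set, and for genes near the bottom of the scale, such as Meox1, small differences could not be measured.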
